A study of Mus musculus with 6 samples.

Results

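Scavenger receptors and endocytic lipoprotein receptors are the surface and lysosomal membrane proteins through which macrophages take in modified lipoproteins, lipid and cell debris. The group described here has 7 genes of the 14148 in the deposited table: Cd68, Msr1, Scarb1, Scarb2, Lrp1, Cd14 and Vldlr. They were chosen by gene symbol, with earlier results of these data known. All 7 are listed in the table, and 6 passed the filter on low values (at least 10 normalized counts in at least 3 libraries). Vldlr did not pass.

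RNA was sequenced from microglia, the macrophages that live in the brain tissue, of male C57BL/6 mice aged 18 months. Hippocampi of 3 mice were pooled for each sample, and about 10000 live cells with CD11b and low CD45 were sorted by BODIPY, a dye for neutral lipid. The lipid droplet-low (LD-low) group holds 3 libraries of BODIPY-low cells and the lipid droplet-high (LD-high) group 3 libraries of BODIPY-high cells. No treatment or engineered allele is named for either group. The comparison asks whether droplet-rich microglia of aged mice carry different amounts of these receptor transcripts.

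Scavenger receptors bind many unrelated ligands, among them oxidized lipoproteins, lipid and the surface of dying cells. Receptors of the LDL receptor family bind apolipoprotein E and other ligands, enter the cell in clathrin-coated pits and release their cargo in endosomes, from which lysosomes receive it. Lipid that is taken in this way and not exported can be esterified and stored in droplets.

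Libraries held between 15895576 and 38489448 reads in genes, with LD-high replicate 3 the shallowest. The 8 microglial markers checked (among them P2ry12, Tmem119, Cx3cr1, Sall1, Csf1r, Fcrls and Siglech) were all present, and none passed the test between groups. The neutrophil markers stood apart: the 6 that the table lists summed to between 1220 and 4523 normalized counts in LD-low libraries, most in replicate 3, and had 0 reads in every LD-high library. Choroid plexus epithelium markers moved the other way, from between 366 and 1795 in LD-low to between 1719 and 5592 in LD-high libraries. Over all 11624 genes tested with limma, 178 rose and 212 fell in LD-high libraries.

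None of the 6 tested receptor genes passed limma's test at an adjusted p under 0.05, against 3.36% of all genes tested. Lrp1 alone had an unadjusted p under 0.05. The share of all genes tested under that unadjusted threshold was not counted, so this count and those of the lists below have no background beside them. Count tests on the recovered reads also called 0 of the 6, where edgeR called 3.24% and DESeq2 5.85% of the genes with an adjusted p. The values of LD-low and LD-high libraries overlapped for all 6 genes, while they did not overlap for 24.3% of the genes tested. Of the 6, Cd68, Scarb1 and Scarb2 had log2 changes above 0 and Cd14, Lrp1 and Msr1 below 0, with a median of -0.05 against -0.01 over all genes tested. Together the 7 genes took between 0.238% and 0.264% of each library's reads.

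**Figure D1:**
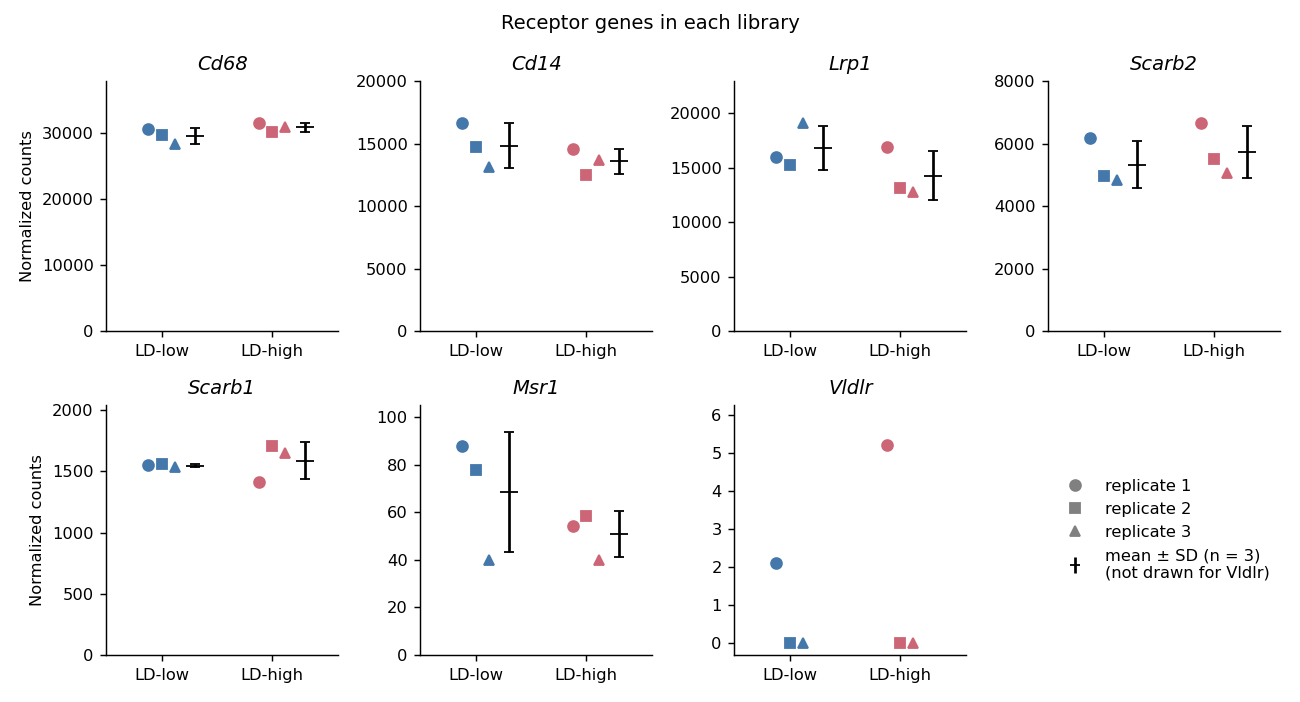
Normalized counts (linear axis from 0) of each receptor gene in the 3 LD-low libraries (blue) and the 3 LD-high libraries (red), with symbols for the replicate number and the mean ± SD beside them except for Vldlr. The groups overlap in every panel, and Vldlr has reads only in the libraries numbered 1.

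Per length of transcript, the receptors covered a wide range. Normalized counts were divided by the length in kilobases (1000 bases) of all annotated exons, a scale on which levels of different genes can be compared roughly. On it Cd68 stood highest, at 23467 ± 961 per kb in the LD-low group and 24514 ± 569 in the LD-high group (SD, n = 3 each), above 99.7% of the genes with a known length. Cd14 followed at 9445 ± 1138 and 8643 ± 652 per kb, and Scarb2 at 2528 ± 351 and 2724 ± 393. Both thus belonged to the most abundant transcripts of these cells. Lrp1 had 947 ± 116 and 804 ± 127 per kb, Scarb1 246 ± 2.2 and 253 ± 24.6, and Msr1 17.1 ± 6.3 and 12.7 ± 2.4. In this order no 2 neighbours overlapped over the 6 libraries. The smallest step between neighbours was the 2.65-fold from Cd68 to Cd14, and the largest the 16.8-fold from Scarb1 to Msr1. Exons that these cells may not use also count in the length, which can lower the level of genes with many annotated transcripts. Lrp1 and Scarb1 have 10 each, Cd68 and Msr1 3 each, and Cd14 and Scarb2 1 each. The part of this in the order and the steps was not tested.

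**Figure D2:**
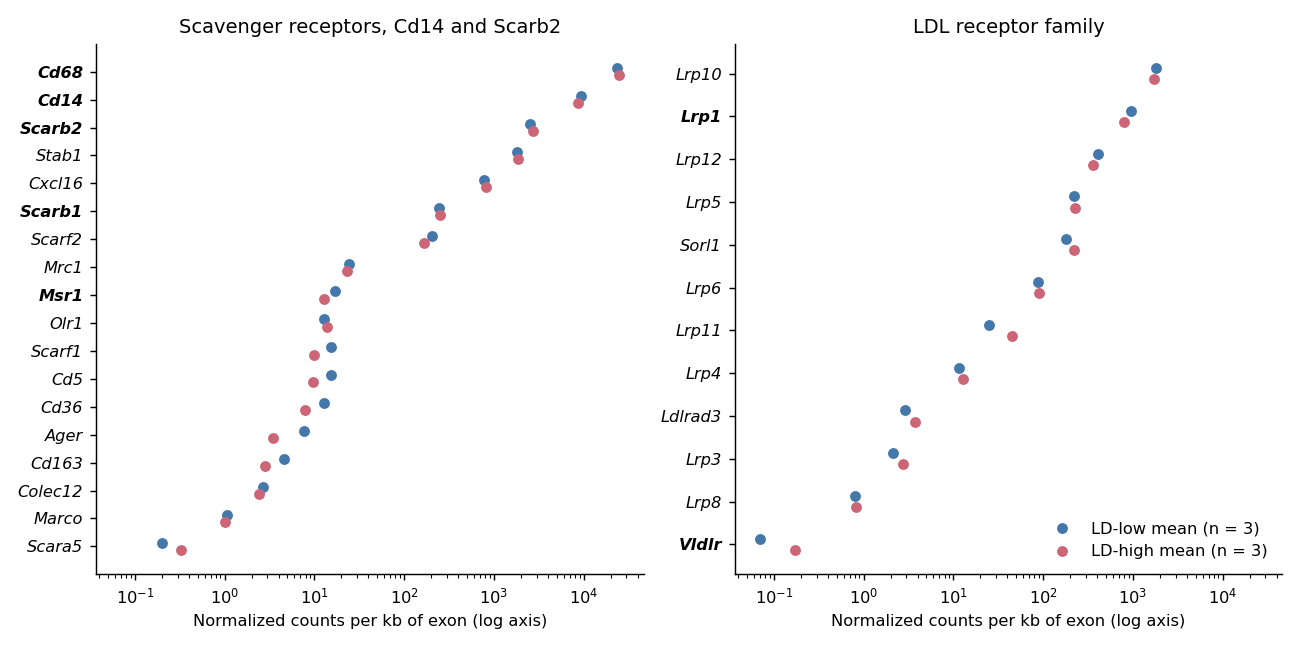
Mean normalized counts per kb of exon (log axis) in LD-low (blue) and LD-high (red) libraries for scavenger receptors with Cd14 and Scarb2 (left) and for 12 genes of the LDL receptor family (right), with the 7 genes of the group in bold. Cd68 and Cd14 head the left panel, and Lrp10 and Lrp1 the right one, where Vldlr is last.

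Cd68 encodes macrosialin, a heavily glycosylated relative of the lysosomal proteins Lamp1 and Lamp2 that resides mainly in late endosomes and lysosomes of macrophages. The gene lies on chromosome 11 (69477715 to 69479655, minus strand, mm9). The LD-low libraries held 30631, 29637 and 28227 normalized counts (replicates 1, 2 and 3) and the LD-high libraries 31509, 30081 and 30852. All 6 values lay close together, with the lowest in LD-low replicate 3 and the highest in LD-high replicate 1. The log2 change was 0.06 ± 0.07 (SE, adjusted p = 0.643), with a 95% interval from -0.08 to 0.21. In fold terms the interval ran from 0.947 to 1.15. Quantile normalization turned the sign of the change, to -0.01.

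Scarb2 encodes LIMP-2, a lysosomal membrane protein of the CD36 family (chromosome 5, 92872899 to 92934634, minus strand, mm9). It had 6186, 4982 and 4836 normalized counts in the LD-low libraries and 6674, 5499 and 5071 in the LD-high ones. In each group the library numbered 1 was the highest, and the groups overlapped across most of their range. The log2 change was 0.11 ± 0.10 (SE, adjusted p = 0.610, 95% interval -0.12 to 0.33), and it was -0.01 without LD-high replicate 1.

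Scarb1 encodes SR-BI, a surface receptor of the CD36 family that takes up cholesteryl ester from high-density lipoprotein without swallowing the particle (chromosome 5, 125757457 to 125821464, minus strand, mm9). The LD-low values were 1549, 1560 and 1533 normalized counts, and the LD-high values 1414, 1704 and 1650. The LD-low libraries were almost equal, with a coefficient of variation of 0.893%, and lay inside the wider spread of the LD-high libraries (9.72%), of which replicate 1 was below and replicates 2 and 3 were above them. The log2 change was 0.03 ± 0.09 (SE, adjusted p = 0.874, 95% interval -0.15 to 0.22). Its sign turned with equal library totals (-0.01) and without LD-high replicate 2 (-0.02).

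Lrp1 encodes the LDL receptor-related protein, a very large endocytic receptor for apolipoprotein E, proteases with their inhibitors and amyloid-beta (chromosome 10, 126975217 to 127058204, minus strand, mm9). It had 16003, 15238 and 19103 normalized counts in LD-low libraries and 16834, 13108 and 12799 in LD-high libraries. The highest value was that of LD-low replicate 3, and the lowest were those of LD-high replicates 2 and 3, while LD-high replicate 1 lay above LD-low replicates 1 and 2. The LD-low mean was 16781 ± 2046 and the LD-high mean 14247 ± 2246 (SD, n = 3 each). Its log2 change of -0.24 ± 0.10 (SE) had an unadjusted p of 0.0338 from limma and an adjusted p = 0.211. The 95% interval of the single gene, from -0.46 to -0.02, left out 0, but it is not adjusted for the number of genes tested.

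The size of the Lrp1 difference depended on single libraries and on a correction for length. It was -0.37 without LD-high replicate 1 (adjusted p = 0.0502) and -0.14 without LD-low replicate 3 (adjusted p = 0.552). The exons of Lrp1 cover 17717 bases, more than those of the other members. With a correction of each library for transcript length the log2 change was -0.11 (adjusted p = 0.486), and with equal library totals it was -0.28 (adjusted p = 0.134). LD-low replicate 3, where Lrp1 was highest, is also the library with the most neutrophil transcripts (4523 normalized counts), whose part in the value was not tested.

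Cd14 encodes the membrane-anchored co-receptor that hands lipopolysaccharide to Toll-like receptor 4 and that also binds dying cells (chromosome 18, 36884728 to 36886390, minus strand, mm9). The LD-low libraries held 16685, 14749 and 13111 normalized counts and the LD-high libraries 14565, 12519 and 13674. The highest value was LD-low replicate 1 and the lowest LD-high replicate 2, with LD-low replicate 3 inside the LD-high range. The log2 change was -0.12 ± 0.09 (SE, adjusted p = 0.449, 95% interval -0.31 to 0.06), -0.04 without LD-low replicate 1 and -0.21 without LD-low replicate 3. In bulk samples such as these, fewer cells of a type and less RNA per cell cannot be told apart.

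Msr1 encodes the class A scavenger receptor, a trimer with a collagen-like stalk that binds modified lipoproteins and amyloid-beta fibrils (chromosome 8, 40667054 to 40728032, minus strand, mm9). It rested on few reads: 125, 72 and 43 in LD-low libraries and 73, 52 and 24 in LD-high libraries. These gave 87.7, 77.9 and 39.9 normalized counts in LD-low against 54.4, 58.2 and 40.1 in LD-high libraries. LD-low replicates 1 and 2 were above all LD-high libraries, whereas LD-low replicate 3 was the lowest of the 6. The exact 95% Poisson intervals of LD-low replicate 1 (73.0 to 105) and LD-low replicate 3 (28.9 to 53.8) did not overlap, so libraries of the same group differed beyond counting error. The log2 change of -0.36 ± 0.33 (SE, adjusted p = 0.570) had a 95% interval from -1.06 to 0.33, or 0.481-fold to 1.26-fold. It was -0.71 without LD-low replicate 3 and -0.15 without LD-low replicate 1, and with this spread between libraries the interval held both a fall to 0.5-fold and no change.

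Markers of macrophages of the brain's borders, monocytes and neutrophils were set beside Cd14 and Msr1, since such cells can transcribe 1 or both genes. Of the 9 border-associated macrophage markers, 8 were tested, 7 of those had log2 changes below 0, and none passed. Stab1 made up most of their sum, with a mean of 18709 normalized counts in the LD-low group and 18965 in the LD-high group. The other 8 summed to 557, 383 and 254 normalized counts in LD-low libraries and 416, 271 and 167 in LD-high libraries. LD-low replicate 1 was thus the highest of the 6 for these markers, for Cd14 and for Msr1, and LD-low replicate 3 was the lowest of the LD-low libraries for all 3 measures. Among LD-high libraries the orders differed. The markers were highest in replicate 1 and lowest in replicate 3, whereas replicate 2 had the lowest Cd14 and the highest Msr1. The part of these markers in the Cd14 and Msr1 values was not tested. The 7 monocyte markers summed to between 178 and 227 in LD-low and between 118 and 134 in LD-high libraries, and none of the 3 tested passed. Ccr2 had the highest means of them (136 in LD-low, 103 in LD-high), and its values overlapped between groups. Ly6c2 and Vcan were among those at 0 in LD-high, but neither passed the filter, with LD-low means of 7.76 and 1.91. The most neutrophil markers and, within the LD-low group, the least Cd14 and Msr1 were in LD-low replicate 3. The part of monocyte and neutrophil markers in these values was not tested either.

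**Figure D3:**
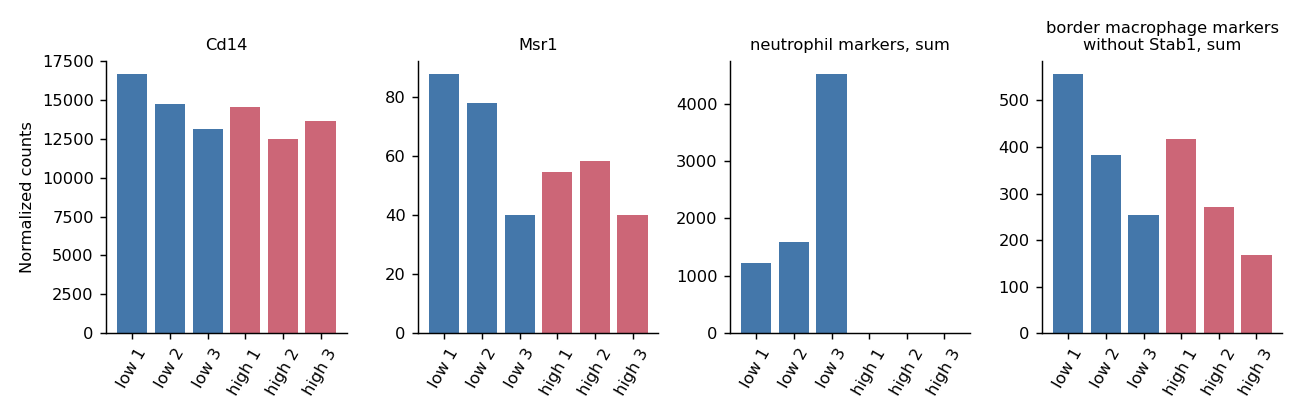
Bars from 0 give the normalized counts of Cd14 and Msr1, the sum of the neutrophil markers, and the sum of the border-associated macrophage markers other than Stab1, in each LD-low (blue) and LD-high (red) library. LD-low replicate 1 is the highest library for Cd14, Msr1 and the macrophage markers, and neutrophil markers are at 0 in LD-high libraries.

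Vldlr encodes the very low-density lipoprotein receptor, which binds apolipoprotein E-rich particles and reelin (chromosome 19, 27290974 to 27328721, plus strand, mm9). It had 3 reads in LD-low replicate 1, 7 reads in LD-high replicate 1 and 0 reads in the other 4 libraries. Those 3 and 7 reads gave 2.11 and 5.21 normalized counts. Only the deepest library of each group, which had the number 1 in both, thus held any. A count of 0 allows up to 3 reads as a one-sided limit, which is 2.79 to 5.01 normalized counts in the libraries without reads. Scaled for depth, the ratio of LD-high to LD-low was 2.82 with an exact interval from 0.644 to 16.9 for counting error only, so no difference was detectable.

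**Figure D4:**
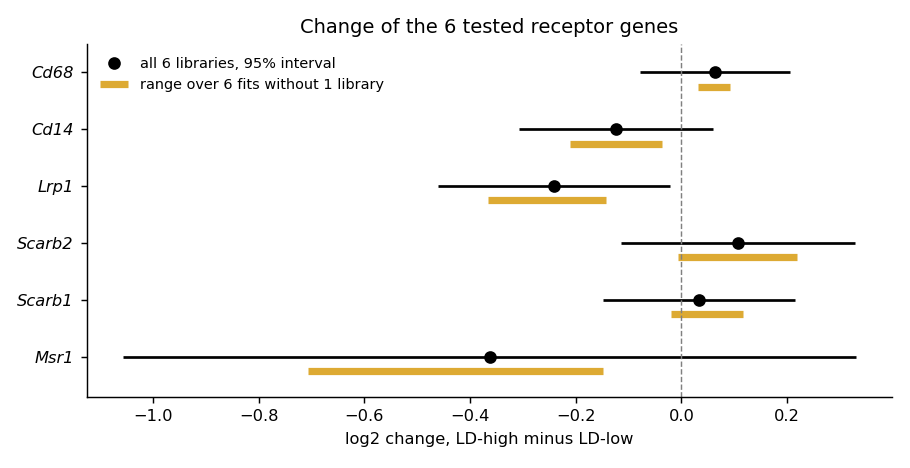
Log2 change from LD-low to LD-high of the 6 tested receptor genes (points) with limma's 95% interval (black lines) and the range over the 6 fits that each left out 1 library (yellow). The interval of Lrp1 alone lies wholly below 0, and Msr1 has the widest interval, from -1.06 to 0.33.

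Ratios of 2 members within a library do not depend on how libraries were scaled. Of the 15 pairs of the 6 tested genes, 3 had ratios that did not overlap between groups, each with an exact two-sided permutation p of 0.1, the smallest that 3 against 3 libraries allow, and 0.5 after adjustment over the pairs. Over single genes the share without overlap was 24.3%, but ratios are another measure, and the 15 pairs reuse the same 6 genes. No share over ratios of other gene pairs was taken, so these 3 of 15 have no like background. The ratio of Scarb2 to Lrp1 was 0.387, 0.327 and 0.253 in LD-low against 0.396, 0.419 and 0.396 in LD-high libraries. All LD-high values were above all LD-low values, by a mean of 0.35 on the log2 scale. The ratio of Cd68 to Cd14 was 1.84, 2.01 and 2.15 in LD-low against 2.16, 2.40 and 2.26 in LD-high libraries, a mean difference of 0.19. That of Scarb2 to Cd14 differed by 0.23, and LD-low replicate 1 and LD-high replicate 3 nearly touched, both at 0.371. The pairs are named because their groups did not overlap, and no ratio passed.

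The genes whose log2 values followed each member most closely over the 6 libraries, out of 10199 candidates whose mean reached 50 normalized counts, are given as a description. Cd68 was followed most closely by Spsb1, Lcp1 and Ccdc104, with Pearson's r of 0.994, 0.992 and 0.992. For Scarb2 they were Zfp395, Thtpa and Galnt2 (0.991, 0.991 and 0.987), and for Scarb1 Smim11, Abhd17b and Fam195a (0.985, 0.976 and 0.975). Lrp1 varied most like Btbd6, Cflar and Rfx3 (0.998, 0.990 and 0.988), and Cd14 like Pink1, Smim3 and Mettl21a (0.997, 0.992 and 0.977). Msr1 varied most like Acp2, A930005H10Rik and Cdc26 (0.982, 0.976 and 0.976). None of these genes was a member. Among the members themselves, r ran from -0.76 for Lrp1 with Scarb1 to 0.75 for Scarb2 with Cd68. All these values share the same 6 libraries and their size factors.

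Other scavenger receptors did not pass the test. Of 18 on the list, 10 were tested, 3 with log2 changes above 0 and 7 below, with a median of -0.42. That median was -0.01 among genes that passed a filter of 50 normalized counts and -0.25 with quantile normalization. Leaving out LD-low replicate 1 or 2 gave -0.19 or -0.23, and leaving out LD-high replicate 2 or 3 gave -0.20 or -0.18. In limma 1 of them had an unadjusted p under 0.05, and edgeR and DESeq2 called 0. Cd36, the fatty acid and oxidized LDL receptor that gives the family of Scarb1 and Scarb2 its name, had 56.8, 54.1 and 39.0 normalized counts in LD-low against 36.5, 26.9 and 30.1 in LD-high libraries. These did not overlap, with a log2 change of -0.66 ± 0.33 (SE, adjusted p = 0.280). Scarf2, a scavenger receptor with EGF-like repeats, differed by -0.28 ± 0.12 on the log2 scale (adjusted p = 0.212), and Stab1, an endocytic receptor of macrophages and sinus endothelium, one of 0.01 ± 0.09. Cd163, Mrc1 and Stab1 are on the border-associated macrophage list too, whose tested genes had a median of -0.52.

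In the LDL receptor family around Lrp1 and Vldlr, limma called 1 rise among 10 tested genes, against 3.36% called over all genes tested. The log2 changes of the 10 had a median of 0.03. EdgeR called 0 of the 10 and DESeq2 1, against 3.24% and 5.85% over all genes. In limma 1 of the 10 had an unadjusted p under 0.05, a count without a background. The gene that rose was Lrp11, a family member of little-known function. Its normalized counts were 100, 93.1 and 63.2 in LD-low libraries and 179.5, 140 and 145 in LD-high libraries, which did not overlap. The log2 change was 0.87 ± 0.22 (SE, adjusted p = 0.0468), and the call was lost in 5 of the 6 fits without 1 library and held without LD-low replicate 1. Leaving out LD-low replicate 3 gave the highest value (adjusted p = 0.182), and edgeR (0.0516) and equal library totals (0.0620) did not call it. Choroid plexus markers (median 2.13) were higher in the LD-high group too, with 3 of 5 tested called. Their sums overlapped between groups, with 1719 in LD-high replicate 2 and 1795 in LD-low replicate 3. Their part in the Lrp11 value was not tested. Sorl1, a sorting receptor of endosomes, had a log2 change of 0.30 ± 0.15 (adjusted p = 0.296). Lrp8, the apolipoprotein E receptor closest to Vldlr, did not pass the filter, with means of 8.51 (LD-low) and 8.58 (LD-high). Per kb of exon Lrp10 (1801 and 1739) stood above Lrp1 (947 and 804).

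Chaperones, adaptors and regulators that serve these receptors did not pass either, 10 of 10 tested genes in limma, with a median of -0.01. In limma 1 of them had an unadjusted p under 0.05, and edgeR and DESeq2 called 0. The gene with the smallest p was Mesdc2, which encodes a chaperone of the family in the endoplasmic reticulum (log2 change -0.15 ± 0.07, adjusted p = 0.244). Lrpap1, which encodes the receptor-associated protein that keeps Lrp1 free of ligand on its way to the surface, had 7221 ± 564 and 6828 ± 293 normalized counts (SD, n = 3 each) and a log2 change of -0.08 ± 0.07.

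Of the 14 genes of the clathrin coat and the AP-2 adaptor, which gather such receptors into pits, 1 rose and 13 did not pass. The share called over all genes tested was 3.36%. EdgeR called 1 of the 14 and DESeq2 2, against 3.24% and 5.85% over all genes. In limma 6 of the 14 had an unadjusted p under 0.05, a count without a background. Cltc, the clathrin heavy chain, had 23871, 21506 and 22968 normalized counts in LD-low against 32966, 26837 and 27273 in LD-high libraries. Every LD-high library was above every LD-low library, with a log2 change of 0.34 ± 0.08 (SE, adjusted p = 0.0369). The call was lost in 5 of the 6 fits without 1 library and held without LD-low replicate 1. Leaving out LD-low replicate 2 gave the highest value, an adjusted p = 0.170. Choroid plexus markers were higher in the LD-high group too, with sums that overlapped between groups. Their part in the Cltc and Cd63 values was not tested. On the list 12 of 14 changes were above 0, the median was 0.13, and 7 of the 14 had groups that did not overlap. Over all genes tested, 48.7% of changes were above 0 and 24.3% did not overlap. The median was 0.07 without LD-high replicate 1 and 0.08 with equal library totals or quantile normalization. Picalm, an adaptor that helps to build the pits, had a log2 change of 0.07 ± 0.09 (adjusted p = 0.702).

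Lysosomal membrane genes, the compartment of Cd68 and Scarb2, gave 1 rise among 11 tested genes, against 3.36% called over all genes tested. The other 10 did not pass, and the median was 0.15. EdgeR called 1 of the 11 and DESeq2 2, against 3.24% and 5.85% over all genes. In limma 6 of the 11 had an unadjusted p under 0.05, a count without a background. Of the 11, 6 had groups that did not overlap, against 24.3% of all genes tested. Apart from this list and the clathrin coat, the lists had lower shares than all genes. The share was 20% for other scavenger receptors and for chaperones and adaptors, 18.2% for ligands and 14.3% for Cd14 partners. It was 10% for the LDL receptor family and 7.69% for sterol handling. The rise was in the tetraspanin Cd63 (0.48 ± 0.07, SE, adjusted p = 0.00306), called in all 6 fits without 1 library. The LAMP family relatives of Cd68 had larger log2 changes than the 0.06 of Cd68 itself, a difference that was not tested. Lamp1, more abundant per kb than Lamp2 (20216 and 2787 in LD-low libraries), had 48178, 45535 and 43047 normalized counts in LD-low libraries and 54075, 52610 and 53208 in LD-high libraries. These did not overlap, and the log2 change was 0.23 ± 0.07 (adjusted p = 0.0950), which passed with DESeq2 (adjusted p = 0.00882) and without LD-low replicate 1 (adjusted p = 0.0372). Lamp2 had a log2 change of 0.18 ± 0.07 (adjusted p = 0.183).

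Among ligands of the receptors, 2 of 11 tested genes fell, against 3.36% called over all genes tested. EdgeR called 2 of the 11 and DESeq2 1, against 3.24% and 5.85% over all genes. In limma 3 of the 11 had an unadjusted p under 0.05, a count without a background. The other 9 did not pass in limma at an adjusted p under 0.05, and the median was -0.14. The median was nearer 0 without LD-low replicate 1 (-0.04), LD-low replicate 2 (-0.08), LD-high replicate 2 (-0.06) or LD-high replicate 3 (-0.07). It was -0.22 when LD-high replicate 1 was left out. Lpl, the lipoprotein lipase that also bridges lipoproteins to Lrp1, had 1224, 2365 and 1286 normalized counts in LD-low against 669, 907 and 790 in LD-high libraries. It fell by 0.99 on the log2 scale (adjusted p = 0.0157), a call lost without LD-high replicate 3 (adjusted p = 0.0571) and with DESeq2 (0.0506). Hp, which encodes the hemoglobin-binding plasma protein haptoglobin, fell from 13.3, 30.3 and 49.2 normalized counts to 0, 6.72 and 0 (adjusted p = 0.0347). That call was lost in 4 of the 6 fits without 1 library. It was weakest when LD-low replicate 3 was left out (adjusted p = 0.188), and quantile normalization did not call it (0.0714). Hp passed the filter on low values through its LD-low libraries alone. Its entry into the test thus depended on the group where it was higher. Without that filter Hp was still called in limma (adjusted p = 0.0203), and with the filter of 50 normalized counts it was not tested. Neutrophils carry haptoglobin, and the most Hp and the most neutrophil markers were in LD-low replicate 3. The 6 neutrophil markers in the table had 0 reads in LD-high libraries, so they too passed the filter through LD-low libraries alone. The size of their median log2 change (-7.56) thus depends on the 1 added to each count. The part of neutrophil markers in the Hp value was not tested. Apoe, the main ligand of the LDL receptor family, differed by -0.15 ± 0.13 on the log2 scale (adjusted p = 0.550) and had 21128 ± 4578 normalized counts in LD-low libraries (SD, n = 3), with its lowest value in LD-low replicate 3 (15896).

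None of the 14 genes that work with Cd14 passed in limma, and edgeR and DESeq2 called 0. In limma 3 had an unadjusted p under 0.05, a count for which the share over all genes was not taken. The median was -0.06, with 5 changes above 0 and 9 below. Tlr4, which receives lipopolysaccharide from Cd14, differed by -0.04 ± 0.09 on the log2 scale (adjusted p = 0.868), and its partner Ly96, encoding MD-2, had one of -0.17 ± 0.10 (adjusted p = 0.370). Cd180, which encodes a relative of Toll-like receptor 4, had the smallest p, with 3464, 3172 and 3098 normalized counts in LD-low libraries and 2725, 2785 and 2832 in LD-high libraries. They did not overlap (log2 change -0.22 ± 0.07, adjusted p = 0.0980), and Cd180 passed with equal library totals (adjusted p = 0.0481).

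Genes that handle sterol after uptake did not pass, 13 of 13 tested, with a median of -0.01. In limma 2 of them had an unadjusted p under 0.05, and edgeR and DESeq2 called 0. The smallest p belonged to Abca1, the exporter of cholesterol to apolipoproteins, with a log2 change of 0.24 ± 0.09 (adjusted p = 0.166).

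**Figure D5:**
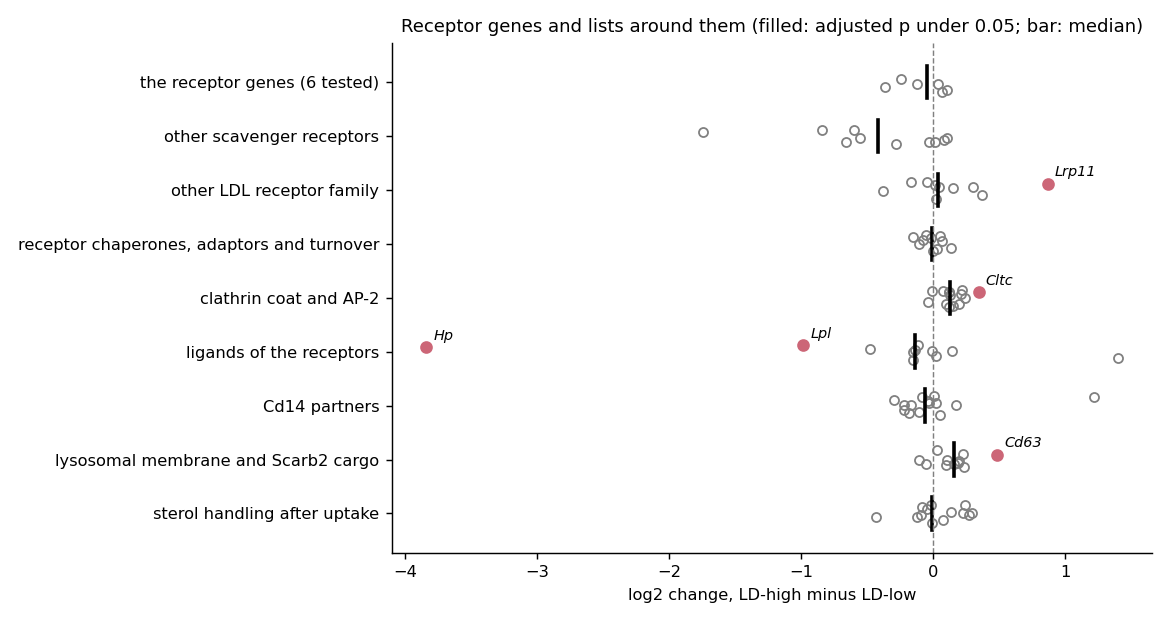
Log2 change from LD-low to LD-high of each tested gene (points) in the receptor group and in 8 lists of genes around it, with the list's median as a bar and genes at an adjusted p under 0.05 filled and named. None of the receptor genes is filled, and the filled genes are Lrp11, Cltc, Cd63, Lpl and Hp.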

How the data were processed

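Per the submitters' processing notes and the design text, FastQC 0.11.4 and STAR 2.5.1b were used with the mm9 genome, and DESeq2 for normalization. The deposited values are a signal per gene, the reads of each gene over the library's size factor. All were whole multiples of 1 step per library (100% within 0.01 reads), which gave the reads back. The annotation, the strand setting and any filter of genes were not given in the sources used here. Positions and exon lengths come from GENCODE vM1 on the same build (12949 symbols matched). No other gene's exons overlap those of a member there.

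Groups were compared with limma 3.58.1 (R 4.3.3), on log2(normalized count + 1) with a trended variance, for 11624 genes, with 2-sided p-values adjusted by the Benjamini-Hochberg method. Changes are on that scale, which understates those of low genes. Alternatives included edgeR 4.0.16 and DESeq2 1.42.0 on the recovered reads. The test was tested on simulated counts, where it called 64% of 100 genes changed by 0.5 and 99% of 100 changed by 1 on the log2 scale, among 11548 genes. The changed genes had means of at least 50, and 5.23% of the calls were false. The spread between simulated replicates followed a fixed rule and was not estimated from these libraries, so these shares need not hold for them.

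The members and lists were chosen with earlier results of these data known. All members are named, with each list's called genes (or that with the smallest p), fixed partners and ligands, and the 3 genes most like each member. Other named genes (Lrp10, Stab1) were chosen after their values were seen. Nothing says whether pools share mice, so the p-values reflect the spread among these 6 libraries alone, part of which may be technical. Intervals and floors of counts cover counting error only. Some genes of the lists are not reported here by name.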

Additional observations from a re-analysis of the deposited data

How the results depend on the processing

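Under 18 alternatives (other pseudocounts, filters and scalings, no trend, a length correction, a replicate block, edgeR, DESeq2 and each library left out), 0 members were called. Signs turned for Scarb1 with equal library totals (-0.0088) and for Cd68 with quantile normalization (-0.011). With 1 library left out, changes ran from -0.019 to 0.116 for Scarb1, -0.0059 to 0.218 for Scarb2, -0.00076 to 0.177 for Picalm and -0.111 to 0.0548 for Tlr4 (0.018 without LD-high replicate 3). The cause was not tested. Over all genes the 390 calls became 252 with quantile normalization, 15 without a trend, 715 with DESeq2, 1090 with the replicate block and 52 to 421 with 1 library left out. The 5 called genes of the lists became 0 without a trend, 17 with the replicate block and 1 to 6 with 1 library left out. With the block the smallest adjusted p of a member was 0.0805 (Lrp1), and Lamp1 (0.0119), Sorl1 (0.0167), Lamp2 (0.0302), Cd180 (0.0408) and Abca1 (0.0478) were called. Deviations of same-numbered libraries correlated at 0.161, 0.132 and 0.0641, and each library correlated best with its own number, a hint from the data that does not show that the numbers pair the samples. Vldlr had reads in 2 of 6 libraries, the deepest of each group, and the part of depth in this was not tested. For Msr1 the spread between LD-low libraries (36.8% of the mean) was larger than the counting error of a library (8.94% to 20.4%).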
